A study of Homo sapiens with 17 samples.

Results

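The 6 untreated libraries of a BEAS-2B experiment lay in 2 sets, and controls 4, 5 and 6 were set against controls 1, 2 and 3, as numbered in the sample titles. These 6 libraries are part of 17. BEAS-2B is a human line of bronchial epithelium that was immortalised. All cells were wild type, were grown in BEGM, a serum-free bronchial epithelial medium, and stood for 24 h in medium with 0 mM (6 libraries), 10 mM (6 libraries) or 16 mM (5 libraries) acetaldehyde. No label sets the control sets apart, and the labels do not state whether each library was a culture of its own. The sets were selected on measured values (genes of sterol synthesis, CDKN1A and C4B), so every difference between them is given as a description of these 6 libraries, without a test. Any p-value in the text concerns the exposure to 16 mM and measures only the spread between libraries, which may be technical. A p-value against 1 control set alone uses a reference selected on measured values and is given only as a description.

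Cholesterol synthesis is switched by SREBP transcription factors, which are held in the endoplasmic reticulum by INSIG proteins while sterols are plentiful and travel to the nucleus when sterols run low. Their targets include enzymes of the mevalonate and sterol pathway and of fatty acid synthesis. Interferon-stimulated genes respond to STAT and IRF factors and form part of the antiviral state of airway epithelium. The p53 targets named here respond to DNA damage and other stress, and genes of the G2/M phase are transcribed mainly in dividing cells.

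In controls 4-6 the mRNAs of sterol and fatty acid synthesis, chaperones, mitosis, metallothioneins and extracellular matrix were mostly more abundant than in controls 1-3. Those of the interferon response, acute phase proteins, ERK outputs and the circadian clock were mostly less abundant, as were several complement components and p53 targets. Among single genes with at least 5 FPKM (fragments per kilobase of transcript, scaled to library depth), INSIG1 was 5.63-fold higher, ARHGDIB 5.37-fold higher and FASN 4.55-fold higher. GDF15 was 7.12-fold lower, IFI27 5.17-fold lower and LCN2 4.84-fold lower. Folds and log2 differences were taken from CPM (counts relative to library depth) scaled by TMM, a normalization that evens out the bulk of genes, and levels are FPKM.

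Estimated counts per control library totalled 16618130 to 17181707. Between 12324 and 12525 genes had at least 10 counts. The 10 most abundant genes took 2.76 to 2.94% of the counts in controls 1-3 and 3.27 to 3.45% in controls 4-6, and the TMM factors were 1.05 to 1.11 and 0.990 to 1.01. Across genes the log2 CPM of 2 libraries correlated at r of 0.991 to 0.995 within a set and 0.977 to 0.989 between sets. The median over genes of the chi-square for 2 libraries, which counting error alone would place at 0.45, was 0.667 to 2.31 within sets and 3.53 to 9.12 between them. No pair agreed within counting error, so each library was kept as a sample of its own. That does not show that each came from a separate culture. Control 1 stood apart from the other 2 libraries of its set: it differed from controls 2 and 3 by medians of 2.11 and 2.31, whereas controls 2 and 3 differed by 0.681. Library 1 of the 10 mM group stood apart from all others (r of 0.840 to 0.866 with its group) and is left out of the values given for that dose.

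**Figure D1:**
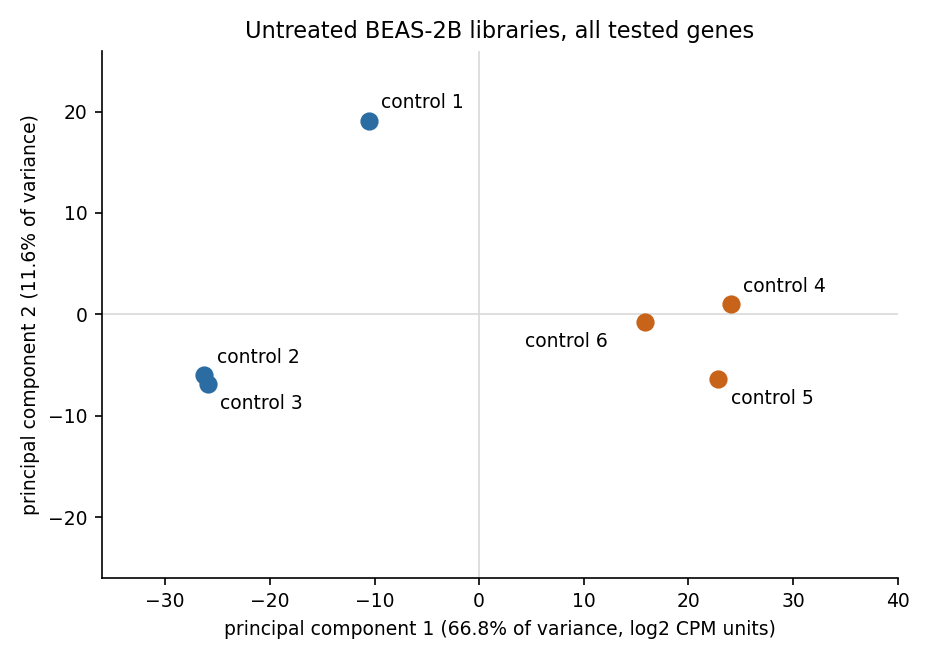
First and second principal components of log2 CPM over the 12426 genes compared, with 1 point per untreated library (blue, controls 1-3; orange, controls 4-6; axes in log2 CPM units, with each component's share of the variance). Controls 2 and 3 lie at -26.3 and -25.9 on the first component, control 1 at -10.6 and controls 4-6 between 15.9 and 24.0, and control 1 lies highest on the second component at 19.1.

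The first component took 66.8% of the variance among the 6 libraries and the second 11.6%, as the plot of components shows. Control 1 was the library of its set nearest to controls 4-6, and control 6 was the library of the other set nearest to controls 1-3. Of 12426 genes compared, 3489 (28.1%) had all 3 values of controls 4-6 above those of controls 1-3 and 3712 (29.9%) had all 3 below, together 58%. With a difference of at least 1.5-fold as well, 532 genes (4.28%) were higher and 514 (4.14%) lower, together 8.42%. Counts of list members below without a fold limit are to be read beside 28.1% and 29.9%. Those at 1.5-fold are to be read beside 4.28% and 4.14%. At 2-fold or more, 153 genes (1.23%) were higher and 136 (1.09%) lower, and at 4-fold or more 14 (0.113%) and 13 (0.105%). Without control 1 the 2-fold counts were 203 higher and 206 lower. On the deposited FPKM, which are not TMM-scaled, the median of all genes shifted to -0.12 on the log2 scale and the 2-fold counts were 107 higher and 157 lower, so that 40.5% of them were higher, against 52.9% with TMM.

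**Figure D2:**
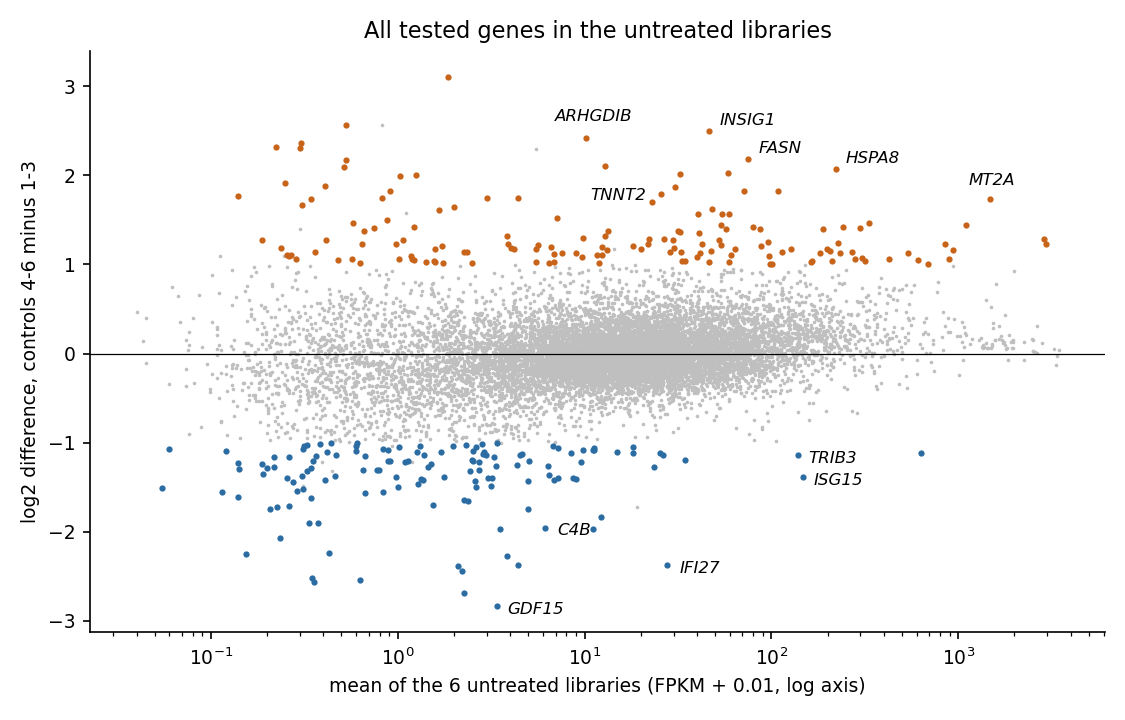
Log2 difference of controls 4-6 minus controls 1-3 against mean level in the 6 untreated libraries (FPKM, log axis), 1 point per gene; coloured points are at least 2-fold apart with no overlap between the sets (orange, 153 higher; blue, 136 lower). The higher genes include abundant ones such as MT2A and HSPA8, and the lower genes lie mostly at lower levels.

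The genes that stood apart differed in abundance between the directions. With genes parted into 4 equal bins by mean level, in the highest bin, 2.00% were at least 2-fold higher and 0.129% at least 2-fold lower, and in the lowest bin 1.80% were higher and 3.48% lower. The Spearman correlation of the difference with mean level over genes was 0.242, and with transcript length and GC content it was -0.04 and 0.103 (12130 genes). Genes share libraries and are not independent, so these values are descriptions. Just inside the 2-fold limit, among genes with at least 5 FPKM, lay VCP (1.01 on the log2 scale) on the higher side and OASL (-1.04) and HELZ2 (-1.04) on the lower side. Just outside it lay SPARC (0.999) and TENT5B (0.997), and FUT1 (-0.99) and IFI6 (-0.98).

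To show the regulatory sequence of members of the sterol, mitotic and interferon groups, RefSeq promoters (GRCh38.p14, 250 bases before to 50 after the annotated start) were searched on both strands. The motifs were CCAAT (reverse complement ATTGG), an interferon response element (GAAA, any 2 bases, GAAA) and a sterol response element TCACNCCAC (GTGGNGTGA), and matches of different motifs may overlap. A RefSeq promoter was found for 10087 of the 12426 genes compared. The first 4 sequences below are sterol and mitotic genes with CCAAT or ATTGG in capitals: INSIG1 (chr7:155297628-155297927, plus strand), HMGCS1 (chr5:43313363-43313662, minus strand), MSMO1 (chr4:165327419-165327718, plus strand) and KIF20A (chr5:138178862-138179161, plus strand). The last 2 are interferon-stimulated genes with matches to the interferon element or its reverse complement in capitals: IFI27 (chr14:94110486-94110785, plus strand) and ISG15 (chr1:1013247-1013546, plus strand). Each reads 5′ to 3′ along its gene.
INSIG1: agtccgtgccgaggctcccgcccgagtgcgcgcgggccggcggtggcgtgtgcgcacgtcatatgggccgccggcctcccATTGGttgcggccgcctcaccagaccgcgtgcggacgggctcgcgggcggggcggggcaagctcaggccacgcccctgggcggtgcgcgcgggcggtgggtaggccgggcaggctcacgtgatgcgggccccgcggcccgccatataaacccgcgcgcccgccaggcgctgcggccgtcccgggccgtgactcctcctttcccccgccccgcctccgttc
HMGCS1: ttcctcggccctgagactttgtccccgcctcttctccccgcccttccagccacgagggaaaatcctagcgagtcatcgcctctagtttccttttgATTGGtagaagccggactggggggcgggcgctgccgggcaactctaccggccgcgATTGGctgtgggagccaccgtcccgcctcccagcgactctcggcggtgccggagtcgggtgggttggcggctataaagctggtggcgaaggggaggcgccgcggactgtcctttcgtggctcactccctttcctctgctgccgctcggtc
MSMO1: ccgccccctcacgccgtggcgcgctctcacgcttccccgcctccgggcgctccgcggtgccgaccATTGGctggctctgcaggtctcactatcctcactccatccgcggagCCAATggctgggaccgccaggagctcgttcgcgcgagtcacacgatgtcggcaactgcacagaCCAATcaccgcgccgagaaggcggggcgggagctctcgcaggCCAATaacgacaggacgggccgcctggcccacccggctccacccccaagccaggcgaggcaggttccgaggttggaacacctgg
KIF20A: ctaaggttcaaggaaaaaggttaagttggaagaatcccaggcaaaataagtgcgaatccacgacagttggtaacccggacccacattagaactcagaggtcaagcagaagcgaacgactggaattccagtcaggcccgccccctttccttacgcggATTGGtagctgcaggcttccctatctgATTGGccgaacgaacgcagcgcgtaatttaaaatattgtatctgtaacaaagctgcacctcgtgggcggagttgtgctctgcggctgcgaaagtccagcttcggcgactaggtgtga
IFI27: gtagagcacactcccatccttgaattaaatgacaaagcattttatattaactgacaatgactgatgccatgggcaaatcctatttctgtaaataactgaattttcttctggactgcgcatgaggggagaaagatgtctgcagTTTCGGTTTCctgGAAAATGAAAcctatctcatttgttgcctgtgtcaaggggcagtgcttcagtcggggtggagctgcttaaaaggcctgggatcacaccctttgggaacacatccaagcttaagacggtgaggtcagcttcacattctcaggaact
ISG15: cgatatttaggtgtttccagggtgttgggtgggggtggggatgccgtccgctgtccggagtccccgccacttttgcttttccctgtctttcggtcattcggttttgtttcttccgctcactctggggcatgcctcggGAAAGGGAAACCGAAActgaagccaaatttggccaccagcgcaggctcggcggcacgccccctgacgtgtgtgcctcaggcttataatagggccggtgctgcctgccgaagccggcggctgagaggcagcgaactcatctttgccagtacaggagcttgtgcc

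MSMO1 held 4 CCAAT matches, HMGCS1 and KIF20A 2 each and INSIG1 1, and IFI27 and ISG15 each held 2 matches to the interferon element. CCAAT was present in 36.8% of the promoters of all genes compared and in 35.7% of all 27305 RefSeq promoters. It was present in 13 of 18 promoters of sterol synthesis genes (72.2%), 20 of 24 of G2/M genes (83.3%), 13 of 25 of interferon genes (52.0%) and 12 of 20 of p53 targets (60%). It was present in 5 of 12 promoters of fatty acid synthesis genes (41.7%), 6 of 12 of uptake and SREBP control genes (50%) and 5 of 17 of heat shock genes (29.4%). Among genes at least 2-fold higher in controls 4-6 it was present in 61 of 121 promoters (50.4%), and among those at least 2-fold lower in 19 of 91 (20.9%). The interferon element was present in 2.81% of the promoters of all genes compared (3.65% of all RefSeq promoters), in 16 of 25 promoters of interferon genes (64.0%), in 11 of 91 of the 2-fold lower genes (12.1%) and in 0 of 121 of the 2-fold higher genes. The sterol element was in 1.06% of promoters of all genes compared (1.15% of all RefSeq promoters), in 0 of 18 sterol synthesis promoters and in 1 of 12 promoters of uptake and SREBP control genes, that of SREBF2. A match describes the letters only.

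INSIG1 had the largest difference among the sterol and fatty acid genes. INSIG1 (chromosome 7, 155297878 to 155324994, GRCh38.p13), the endoplasmic reticulum anchor of SREBP and itself an SREBP target, stood at 21.5, 12.2 and 11.5 FPKM in controls 1, 2 and 3 and at 85.0, 90.4 and 56.9 FPKM in controls 4, 5 and 6. The sets did not overlap, control 1 was the highest of its set, and control 6 was the lowest of its set. The means were 15.1 ± 5.58 and 77.4 ± 17.97 FPKM (SD, n = 3 each), a log2 difference of 2.49 ± 0.37 (SE). SREBF1 and SREBF2, which encode the SREBP factors, were higher by 0.80 ± 0.18 and 0.46 ± 0.06. Of 15 genes of sterol uptake and SREBP control, 10 were higher without overlap and 2 lower, 5 of them higher by at least 1.5-fold and 0 lower. The 2 lower ones were SOAT1, which esterifies cholesterol for storage, at -0.23, and MBTPS2, a protease that releases SREBP, at -0.37.

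The enzymes of cholesterol synthesis stood higher almost throughout. Of 23 genes, 21 were higher without overlap and 1 lower, 16 were at least 1.5-fold higher and 11 at least 2-fold, and the median log2 difference was 0.92, against -0.02 over all genes. Without control 1 the median was 1.18. HMGCS1 (chromosome 5, 43287321 to 43313477), which makes HMG-CoA, stood at 15.1, 13.7 and 12.8 FPKM in controls 1-3 and at 59.1, 57.2 and 37.2 FPKM in controls 4-6. The sets did not overlap, and the 3 libraries of controls 1-3 lay close together (13.9 ± 1.13 FPKM against 51.2 ± 12.2 FPKM, n = 3 each).

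Enzymes of later steps were higher too. FDFT1, which makes squalene, and MSMO1, a sterol methyl oxidase, were each higher by 1.57 on the log2 scale (SE 0.29 and 0.20). The lanosterol synthase LSS was higher by 1.36 ± 0.21. IDI1, an isomerase of the isoprenoid steps, was higher by 1.22 ± 0.16. GGPS1, which diverts isoprenoids to protein prenylation, was the 1 member that was lower, at -0.16 ± 0.02. PMVK, a kinase of the mevalonate steps, overlapped between the sets at -0.06.

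Of 7 genes of sterol efflux, 3 were higher, 2 lower and 2 overlapped, with a median of -0.04. Over all genes 28.1% were higher and 29.9% lower. ABCG1, an exporter of cholesterol and a target of the oxysterol receptor LXR, differed by -0.38 ± 0.10. The exporter ABCA1 stood at no more than 0.07 FPKM in any control library.

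Fatty acid synthesis was led by FASN (chromosome 17, 82078338 to 82098303), the fatty acid synthase. It stood at 40.9, 23.7 and 23.7 FPKM in controls 1-3 and at 133.4, 130.6 and 99.5 FPKM in controls 4-6. The sets did not overlap, and control 1 was again the highest of its set and control 6 the lowest of its own. Of 14 genes of this group, 9 were higher and 0 lower, 7 by at least 1.5-fold, with a median of 0.56. At 2-fold or more there were 2, and 5 without control 1. PNPLA3, a lipase of lipid droplets that SREBP induces, was higher by 1.23 ± 0.16, the desaturase FADS2 by 0.94 ± 0.19 and the desaturase SCD by 0.88 ± 0.28. LPIN1, a phosphatidate phosphatase, stood between 19.1 and 19.2 FPKM in controls 1-3 and between 30.1 and 35.6 FPKM in controls 4-6.

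**Figure D3:**
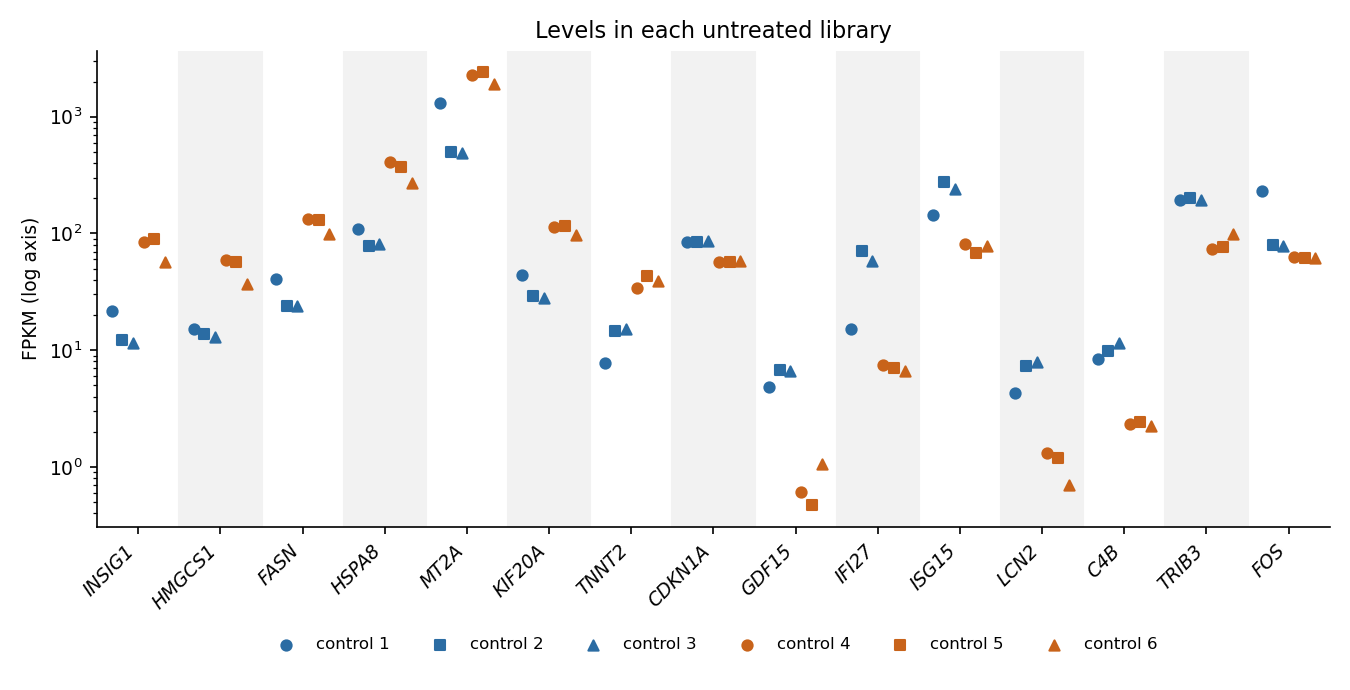
FPKM of 15 genes (log axis) in each untreated library, with 1 point per library (blue, controls 1-3; orange, controls 4-6; marker shape by library within a set). INSIG1, HMGCS1, FASN, HSPA8, MT2A, KIF20A and TNNT2 stand higher in controls 4-6, the next 7 genes stand lower, and FOS stands apart in control 1 at 231 FPKM.

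Most chaperones were higher. Of 18 heat shock genes, 14 were higher and 1 lower, 10 by at least 1.5-fold and 6 by at least 2-fold, with a median of 0.67. HSPA8 (chromosome 11, 123057489 to 123062366), the constitutive HSP70, stood at 108.5, 78.4 and 81.3 FPKM in controls 1-3 and at 412, 371.8 and 271.2 FPKM in controls 4-6. Each value of controls 4-6 was above each of controls 1-3, with a log2 difference of 2.07 ± 0.25. HSP90AA1, the inducible cytosolic HSP90, was higher by 1.41 ± 0.23 and HSP90AB1, its constitutive form, by 1.06 ± 0.17. HSPA1A and HSPA1B, near-identical copies of the inducible HSP70 between which reads may be split wrongly, were higher by 1.29 ± 0.25 and 1.23 ± 0.21. HSF1, the transcription factor of this response, was the lower member at -0.19.

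Genes of mitosis were higher while genes of DNA replication were split. Of 30 G2/M genes, 28 were higher and 1 lower (FOXM1, a regulator of the group, at -0.09), 14 by at least 1.5-fold, with a median of 0.58. KIF20A (chromosome 5, 138179112 to 138187723), a kinesin of cytokinesis, stood at 43.7, 28.99 and 28.1 FPKM in controls 1-3 and at 114.1, 115.6 and 97.3 FPKM in controls 4-6. The sets did not overlap. The spindle protein DLGAP5 was higher by 1.36 ± 0.22, cyclin B1 (CCNB1) by 1.13 ± 0.19, the mitotic kinase PLK1 by 1.11 ± 0.16 and the proliferation marker MKI67 by 0.48 ± 0.06. Of 30 genes of G1/S and replication, 7 were higher and 13 lower, against 28.1% and 29.9% over all genes. Their median was -0.04, and 1 differed by 1.5-fold or more. In RNA from whole cultures, a larger share of cells in G2/M and more mRNA per cell cannot be told apart.

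Metallothioneins, which bind zinc and copper, and several antioxidant genes were also higher. MT2A (chromosome 16, 56608584 to 56614681) stood at 1311, 500.8 and 485.8 FPKM in controls 1-3 and at 2263, 2395 and 1893 FPKM in controls 4-6. Control 1 lay between the other libraries of its set and controls 4-6, and the log2 difference was 1.73 ± 0.47. Of 6 genes of metallothioneins and zinc, 4 were higher and 1 lower, and MT1X and MT1E were higher by 1.24 ± 0.31 and 1.13 ± 0.30. Of 24 NRF2 targets, 17 were higher and 3 lower, 7 by at least 1.5-fold, with a median of 0.24. On the FPKM scale 11 of the 24 were higher. The peroxidase PRDX1 was higher by 1.46 ± 0.28, the quinone reductase NQO1 by 1.16 ± 0.17 and TKT, an enzyme of the pentose phosphate pathway, by 1.15 ± 0.17. Among 30 genes of hypoxia and glycolysis, 15 were higher and 4 lower, against 28.1% and 29.9% over all genes. By at least 1.5-fold 9 were higher, and the glycolytic enzyme ENO1 was higher by 1.16 ± 0.30.

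Most extracellular matrix genes were higher. Of 28 extracellular matrix genes, 20 were higher and 1 lower, with 11 higher and 1 lower by at least 1.5-fold and a median of 0.35. Thrombospondin THBS1 was higher by 1.37 ± 0.24, SPARC, a secreted matrix glycoprotein, by 1.00 ± 0.06, collagen COL5A1 by 0.93 ± 0.05 and fibronectin FN1 by 0.72 ± 0.11. CAV1 (chromosome 7, 116525009 to 116561185), the main protein of caveolae, stood at 65.3, 45.3 and 42.6 FPKM in controls 1-3 and at 175.3, 174.2 and 148.6 FPKM in controls 4-6. The sets lay well apart, at 51.1 ± 12.4 and 166 ± 15.1 FPKM (n = 3 each). Of 12 matrix proteases, 10 were higher and 0 lower, against 28.1% and 29.9% over all genes.

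Further genes among the largest differences were ARHGDIB, GAS1, PRSS23, CPA4 and TNNT2. ARHGDIB, a regulator of small GTPases, stood at 6.40, 2.24 and 2.27 FPKM in controls 1-3 and at 17.6, 16.6 and 15.8 FPKM in controls 4-6. The growth arrest gene GAS1 was higher by 1.86 ± 0.21, the protease PRSS23 by 2.03 ± 0.38 and the carboxypeptidase CPA4 by 2.11 ± 0.42. TNNT2 (chromosome 1, 201359008 to 201385784), a troponin T of heart muscle, stood at 7.71, 14.6 and 15.0 FPKM in controls 1-3 and at 34.1, 43.5 and 39.0 FPKM in controls 4-6. Here control 1 was the lowest of the 6 libraries, whereas it was above the mean of controls 2 and 3 in 136 of the 153 genes that were 2-fold higher. Over those 153 genes control 1 stood above that mean by a median of 0.48 on the log2 scale, and control 6 stood below the mean of controls 4 and 5 by a median of -0.22.

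The interferon response was the list with the most members at lower levels. Of 34 genes, 29 were lower and 1 higher, 21 were lower by at least 1.5-fold and 14 by at least 2-fold, with a median of -0.86. Without control 1 the median was -1.08, and without control 2 the count at 2-fold was 9. IFI27, a small interferon-induced membrane protein, stood at 15.1, 70.2 and 58.4 FPKM in controls 1-3 and at 7.39, 7.06 and 6.69 FPKM in controls 4-6. The sets did not overlap, but control 1 lay nearer to controls 4-6 than to controls 2 and 3. The log2 difference was -2.37 ± 0.66.

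In 2 further interferon-stimulated genes, control 1 again lay between the other libraries of its set and controls 4-6. The ubiquitin-like ISG15 (chromosome 1, 1013497 to 1014540) stood at 142.6, 273.3 and 242.5 FPKM in controls 1-3 and at 80.9, 68.0 and 78.0 FPKM in controls 4-6. The antiviral enzyme OAS1 stood at 8.34, 25.8 and 20.2 FPKM in controls 1-3 and at 4.12, 3.91 and 4.25 FPKM in controls 4-6. OAS2 differed by -2.37 ± 0.53, the GTPase MX2 by -2.38 ± 0.47, IFI44L by -1.83 ± 0.40, the ligase HERC5 by -1.74 ± 0.51 and the transcription factor IRF7 by -1.27 ± 0.21. BST2, a tether of virus particles, was the 1 member that was higher, at 0.18.

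Acute phase genes were lower, and complement genes differed among themselves. All 6 measured genes of acute phase proteins and lipocalin were lower, 5 by at least 1.5-fold, with a median of -0.93. LCN2 (chromosome 9, 128149453 to 128156860), an iron-binding lipocalin, stood at 4.33, 7.38 and 7.99 FPKM in controls 1-3 and at 1.31, 1.2 and 0.7 FPKM in controls 4-6. Of 16 complement genes, 6 were lower, 3 higher and 7 overlapped, against 29.9% lower over all genes, and 4 were lower by at least 1.5-fold. The complement factor C4B stood at 8.47, 9.80 and 11.6 FPKM in controls 1-3 and at 2.33, 2.44 and 2.26 FPKM in controls 4-6. The sets lay far apart, with a log2 difference of -1.96 ± 0.12. C4A, its near-identical copy, stood at no more than 0.360 FPKM in any control library, and how reads were split between the copies is uncertain.

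Other complement components varied more. C5, C1S and factor B (CFB) differed by -1.01 ± 0.13, -0.92 ± 0.20 and -0.93 ± 0.17. C3, the central component, stood at 46.7, 72.8 and 66.9 FPKM in controls 1-3 and at 39.7, 44.6 and 41.2 FPKM in controls 4-6. All 3 FPKM values of controls 4-6 were below those of controls 1-3, yet on the TMM scale the sets overlapped, with a difference of -0.44 ± 0.19. CD59, which protects cells from complement, was higher by 0.58. Of 17 genes of NF-kB and cytokines, 10 were lower and 3 higher, against 29.9% and 28.1% over all genes. Among them the chemokine CXCL2 differed by -1.41 ± 0.26, the cytokine IL6 by -0.90 ± 0.12 and the adhesion molecule ICAM1 by -0.83 ± 0.08.

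The p53 targets differed by smaller amounts, with GDF15 as the exception. Of 25 genes, 14 were lower and 3 higher, 4 lower and 1 higher by at least 1.5-fold, and the median was -0.18. CDKN1A (chromosome 6, 36676463 to 36687332), which encodes the cell cycle inhibitor p21, stood at 84.5, 84.2 and 86.7 FPKM in controls 1-3 and at 56.5, 56.4 and 57.9 FPKM in controls 4-6. Spread within a set was narrow (85.1 ± 1.38 and 56.9 ± 0.83 FPKM, n = 3 each), and the log2 difference was -0.48 ± 0.02. GDF15 (chromosome 19, 18374731 to 18389176), a stress-induced cytokine that p53 and ATF4 both induce, stood at 4.87, 6.71 and 6.68 FPKM in controls 1-3 and at 0.610, 0.470 and 1.06 FPKM in controls 4-6. It had the largest difference among the lower genes with at least 5 FPKM.

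The nuclease AEN differed by -0.93 ± 0.06, and MDM2, the ligase that limits p53, by -0.32 ± 0.08. The kinase PLK2 went the other way, at 0.89 ± 0.23.

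Targets of ATF4, the factor of the amino acid and integrated stress response, were more often lower than higher. Of 27 genes, 12 were lower, 3 higher and 12 overlapped, 4 lower and 1 higher by at least 1.5-fold, with a median of -0.25. Over all genes 29.9% were lower and 28.1% higher, and 4.14% and 4.28% by at least 1.5-fold. The lower count was 20 without control 6 and 19 on the FPKM scale, and the higher count was 7 without control 1. TRIB3 (chromosome 20, 380760 to 399799), a pseudokinase induced by ATF4, stood at 193.3, 199.8 and 194.1 FPKM in controls 1-3 and at 74.0, 76.2 and 98.7 FPKM in controls 4-6. The chromatin protein NUPR1 differed by -1.40 ± 0.18, the hormone FGF21 by -1.64 ± 0.36 and the inhibin subunit INHBE by -1.42 ± 0.25. Asparagine synthetase (ASNS) differed by -0.40 ± 0.12. DDIT4, an inhibitor of mTORC1 that many stresses induce, was higher, at 1.42 ± 0.36.

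Feedback genes of ERK signalling were mostly lower. Of 18 ERK output genes, 12 were lower and 2 higher, 9 lower and 2 higher by at least 1.5-fold, with a median of -0.55. Without control 1, 6 were lower by 1.5-fold and the median was -0.36. SPRY4, an inhibitor of receptor tyrosine kinase signalling, differed by -1.39 ± 0.21, the factor ETV5 by -1.36 ± 0.26 and the ERK phosphatase DUSP6 by -1.19 ± 0.31. The higher members were MYC (0.95) and cyclin D1 (CCND1, 0.75). Of 18 circadian clock genes, 14 were lower and 1 higher, 8 lower by at least 1.5-fold, with a median of -0.43. PER2 and NR1D1, repressors of the clock, differed by -0.96 ± 0.16 and -0.93 ± 0.19, and CIART by -0.98 ± 0.08.

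Immediate early genes, which respond to growth factors and stress within minutes, set control 1 apart from the other 5 libraries. FOS (chromosome 14, 75278828 to 75282230) stood at 231, 78.9 and 77.7 FPKM in controls 1-3 and at 62.7, 61.3 and 61.4 FPKM in controls 4-6. EGR1 stood at 465.5, 275.4 and 283.3 FPKM in controls 1-3 and at 216.5, 192.8 and 184.2 FPKM in controls 4-6. Of 16 genes, 6 were lower in controls 4-6 and 0 higher, 3 by at least 1.5-fold, with a median of -0.39. Without control 1 the median was -0.05 and 0 differed by 1.5-fold, while 6 were still lower and 2 higher. The size of the difference thus rests on that library.

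**Figure D4:**
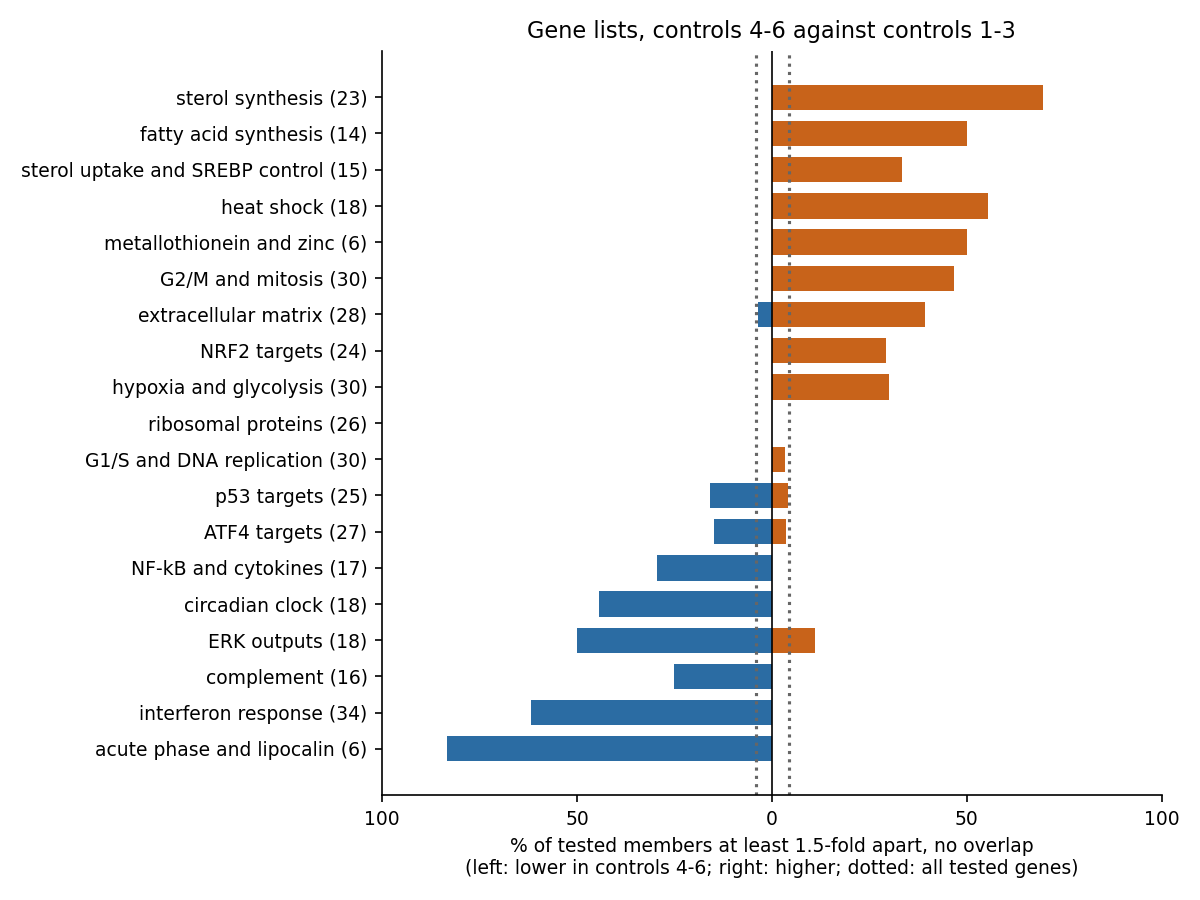
Share (%) of the genes of each list that were at least 1.5-fold apart with no overlap between the sets (right, higher in controls 4-6; left, lower; in parentheses, the number of genes compared; dotted lines, all genes, 4.28% and 4.14%). Sterol synthesis has 16 of 23 genes on the right, the interferon response has 21 of 34 on the left, and ribosomal proteins have 0 of 26 on either side.

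Groups with little difference are visible in the same plot of list shares. Of 26 ribosomal protein genes, 14 were higher and 0 lower without overlap (9 on the FPKM scale), but 0 reached 1.5-fold, and the median was 0.13. Of 27 genes of oxidative phosphorylation, 18 were higher and 0 lower, 2 by 1.5-fold, with a median of 0.23.

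The labelled cell type was checked against its markers. The keratins KRT8, KRT18 and KRT7 of simple epithelium were abundant in all 6 libraries (KRT8 at 180.8 to 258.9 FPKM in controls 1-3 and 353 to 440.3 FPKM in controls 4-6), whereas the epithelial markers EPCAM and CDH1 stood at no more than 0.05 and 0.12 FPKM and KRT19 at 0 FPKM. Of 4 epithelial markers with enough counts, 2 were higher and 1 lower. The lower one was ESRP1, an epithelial splicing factor, at 0.54 to 0.83 FPKM in controls 1-3 and 0.08 to 0.15 FPKM in controls 4-6. The basal markers KRT5 and TP63 stood at no more than 0.12 and 0.1 FPKM. Vimentin (VIM), an intermediate filament of mesenchymal cells, was abundant and higher by 0.70 ± 0.10 in controls 4-6. Of 17 genes of the epithelial-mesenchymal transition and cadherins, 4 were higher and 7 lower, against 28.1% and 29.9% over all genes, with a median of -0.07. Both sets thus carried keratins of simple epithelium, with EPCAM and CDH1 at or near 0.

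Marker levels of other cell types were as follows. Of 11 fibroblast markers in the table, 8 had enough counts, 4 were higher and 1 lower, and their summed level was 36.7 to 39.5 FPKM in controls 1-3 and 53.02 to 57.0 FPKM in controls 4-6. THY1 stood at 16.3 to 19.3 FPKM in controls 1-3 and 25.3 to 27.3 FPKM in controls 4-6. PDGFRB stood at 9.11 to 10.0 and 14.9 to 16.6 FPKM, and COL1A1 at 2.52 to 2.86 and 4.41 to 4.84 FPKM. MFAP4 went the other way, at 1.92 to 2.93 and 1.14 to 1.71 FPKM. COL1A2 and COL3A1 stood at no more than 0.01 FPKM. Of 9 endothelial markers 1 had enough counts, and the sum was 0.7 to 1.03 FPKM and 0.640 to 0.900 FPKM, with PECAM1 and VWF at no more than 0.02 and 0.01 FPKM. Of 8 immune markers 2 had enough counts, with sums of 4.86 to 5.50 FPKM and 3.62 to 4.6 FPKM and PTPRC at no more than 0.01 FPKM. Most of it was CD68, at 3.62 to 4.36 FPKM in controls 1-3 and 2.65 to 2.87 FPKM in controls 4-6. Of 8 smooth muscle and pericyte markers 3 had enough counts, with sums of 58.5 to 66.1 FPKM and 73.6 to 77.4 FPKM, nearly all of it MCAM, and with MYH11 at no more than 0.06 FPKM. Of 11 airway secretory, ciliated and alveolar markers 2 had enough counts, with sums of 6.01 to 7.41 FPKM and 6.50 to 7.94 FPKM and with FOXJ1 at 0 FPKM. Most of that sum was AGER, at 4.77 to 5.03 FPKM in controls 1-3 and 5.31 to 6.09 FPKM in controls 4-6. The fibroblast sum moved with the matrix genes described above, and its part in them was not tested.

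Against these sets, the exposed cells were read in 1 comparison given by the labels, 16 mM against all 6 controls. In edgeR's quasi-likelihood test of 12410 genes, with Benjamini-Hochberg adjustment, 4053 rose (32.7%) and 3926 fell (31.6%), together 64.3%. With the close libraries summed to 4 samples, 1333 rose and 1583 fell. The spread between the control sets is part of the error of this test. Of 23 sterol synthesis genes 11 rose and 3 fell, of 18 heat shock genes 16 rose and 0 fell, and of 25 p53 targets 14 rose and 5 fell. Of 34 interferon genes 3 rose and 12 fell, and of 30 G2/M genes 3 rose and 4 fell. The median changes of these 5 lists were 0.46, 1.34, 0.39, -0.36 and 0.08 on the log2 scale.

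INSIG1 stood at 87.7, 78.4, 89.2, 42.8 and 43.4 FPKM in the 5 libraries at 16 mM, all above controls 1-3. Libraries 1-3 at 16 mM lay within the range of controls 4-6 and libraries 4 and 5 below it. Its change was 0.53 ± 0.53 on the log2 scale (edgeR adjusted p = 0.398). Against controls 1-3 alone the difference of means was 2.24, and against controls 4-6 alone -0.27.

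The change of FASN was 0.63 ± 0.45 (edgeR adjusted p = 0.235), with 2.13 against controls 1-3 and -0.07 against controls 4-6. Fitted against controls 1-3 alone, INSIG1 and FASN passed the threshold at 2.21 and 2.05 (edgeR adjusted p = 0.000266 and 3.21e-05), and against controls 4-6 alone they did not, at -0.23 and -0.07 (edgeR adjusted p = 0.454 and 0.596). The sets were selected on values that include sterol genes, so these p-values are in part fixed by that choice. They show only that the call depended on the reference. HMGCS1 rose by 1.48 ± 0.43 (edgeR adjusted p = 0.00854), with 2.84 and 0.81 against the 2 sets. With close libraries summed it no longer passed, at 1.44 (edgeR adjusted p = 0.0736). The chaperone HSPA8 rose by 2.10 ± 0.45 (edgeR adjusted p = 0.00129), with 3.48 and 1.39. With close libraries summed HSPA8 passed at 2.14 (edgeR adjusted p = 0.0295). All 5 libraries at 16 mM lay above all 6 controls for HMGCS1 and HSPA8.

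For genes that were lower in controls 4-6, the set that serves as reference also mattered. CDKN1A rose by 0.91 ± 0.17 (edgeR adjusted p = 0.000495), with 0.65 against controls 1-3 and 1.11 against controls 4-6. C4B fell by 3.11 on the log2 scale (SE 0.52, edgeR adjusted p = 0.000201), with -3.84 and -1.90. GDF15 changed by -0.91 ± 0.74 (edgeR adjusted p = 0.298), with -2.14 against controls 1-3 and 0.67 against controls 4-6. With all libraries of the higher dose pooled, the sign of the difference thus depended on the control set. Split by title number, the order did not change sign. At the higher dose, libraries 1-3 lay below controls 1-3 in FPKM, and the others lay below controls 4-6, at low levels. With title number as a block GDF15 passed at -1.05 (edgeR adjusted p = 0.00275), but the numbers were not taken as a pairing. Fitted against controls 1-3 alone it passed the threshold at -1.73 (edgeR adjusted p = 0.0227), and against controls 4-6 alone it did not, at 1.21 (edgeR adjusted p = 0.206). The sets were selected on measured values, so the p-values against a single set show only that the call depended on the reference. SPRY4 rose by 2.69 ± 0.30 (edgeR adjusted p = 6.41e-06), with 2.16 and 3.52. TNNT2 and FN1, both higher in controls 4-6, changed by -3.52 ± 0.50 and -1.90 ± 0.27 (edgeR adjusted p = 5.67e-05 and 4.75e-05), with -2.33 and -1.57 against controls 1-3 and -4.14 and -2.31 against controls 4-6. With close libraries summed, CDKN1A, C4B, SPRY4, TNNT2 and FN1 kept their calls at larger p-values (edgeR adjusted p = 0.0469, 0.00914, 0.00309, 0.00575 and 0.0197).

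IFI27 stood at 231.3, 241.5 and 250.1 FPKM in libraries 1-3 at 16 mM and at 10.0 and 10.8 FPKM in libraries 4 and 5. It rose by 2.34 ± 0.87 (edgeR adjusted p = 0.0311), but it lost that call when control 1, 4, 5 or 6 or library 1, 2 or 3 at 16 mM was left out (edgeR adjusted p between 0.0573 and 0.0714). Against controls 1-3 alone it changed by 1.54 (edgeR adjusted p = 0.209) and against controls 4-6 alone by 4.25 (edgeR adjusted p = 0.0146). Here too, p-values against a selected set show only that the call depended on the reference. In all 17 libraries fitted together and with close libraries summed IFI27 did not pass either (edgeR adjusted p = 0.0795 and 0.205). The fit of all 17 includes library 1 at 10 mM, which stood apart from its group.

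**Figure D5:**
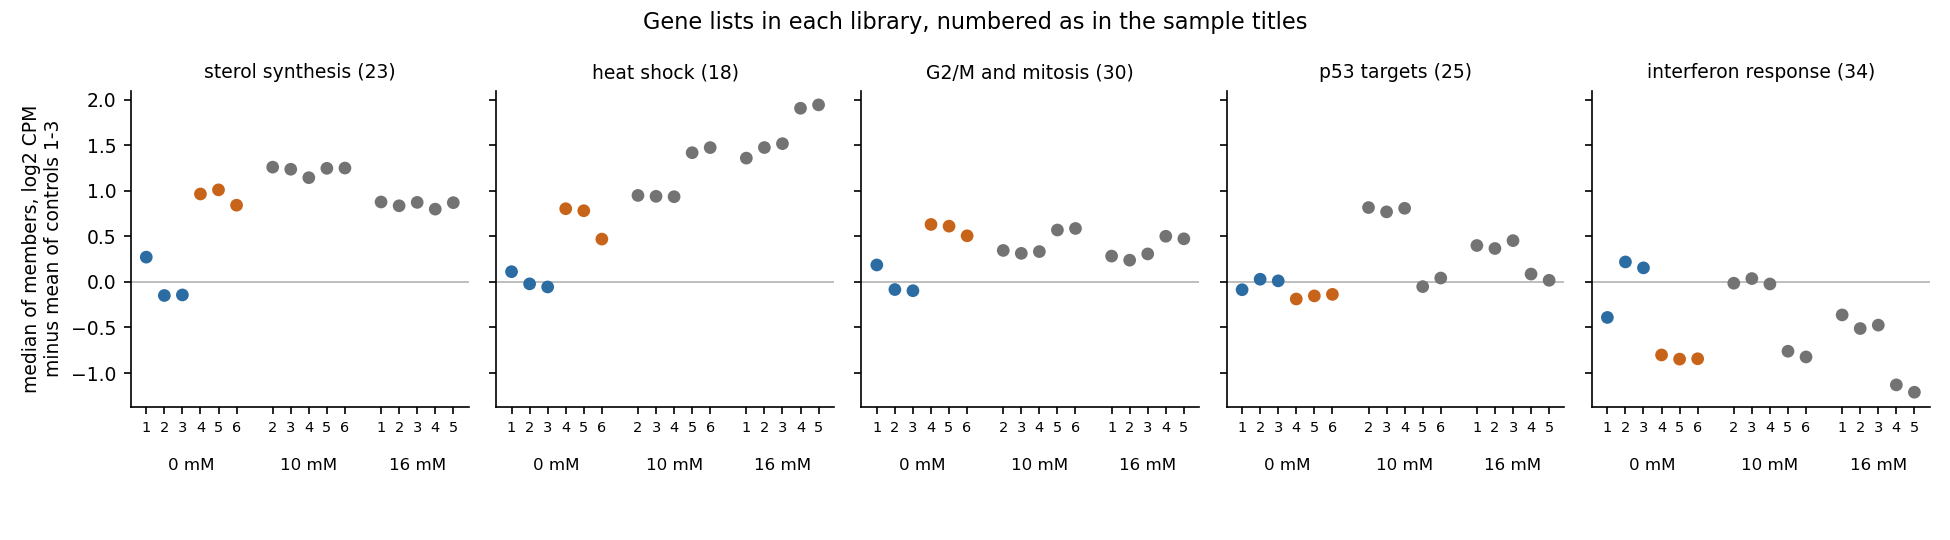
Median over the genes of 5 lists of log2 CPM minus the mean of controls 1-3, with 1 point per library (blue, controls 1-3; orange, controls 4-6; grey, exposed libraries by title number; in parentheses, the number of genes). For sterol synthesis, controls 4-6 lie at 0.84 to 1.01 and the libraries at 16 mM at 0.80 to 0.88, and for the interferon response controls 4-6 lie at -0.85 to -0.80.

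The plot of list positions sets all libraries on the scale of controls 1-3, which the exposed libraries therefore share as reference. The sterol synthesis median was 0.80 to 0.88 at 16 mM and 1.14 to 1.26 in libraries 2-6 at 10 mM. Control 6 (0.84) lay within the range at 16 mM, and controls 4 and 5 (0.96 and 1.01) lay above it and below the range at 10 mM. The heat shock median of controls 4-6 (0.47 to 0.80) lay below that of every exposed library (0.93 to 1.94). The p53 median of controls 4-6 (-0.19 to -0.14) lay below that of every exposed library (-0.05 to 0.82). At 10 mM that median was 0.77 to 0.82 in libraries 2-4, and -0.05 and 0.04 in libraries 5 and 6. For the interferon response, controls 4-6 (-0.85 to -0.80) lay between libraries 1-3 (-0.51 to -0.36) and libraries 4-5 (-1.21 to -1.13) at 16 mM. Control 1 (-0.39) lay within the range of libraries 1-3 at 16 mM, and controls 2 and 3 stood at 0.22 and 0.15. At 10 mM the interferon median was -0.02 to 0.04 in libraries 2-4, and -0.76 and -0.82 in libraries 5 and 6.

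The libraries at 16 mM also lie in 2 sets by title number, which was known from earlier results of these data. So do libraries 2-6 at 10 mM. There the median chi-square was 4.70 to 5.31 between libraries 2-4 and libraries 5-6, and 0.646 to 0.966 within these sets. Whether title numbers mark a shared day or batch is not stated. At 16 mM, libraries 4 and 5 were set against libraries 1-3, without a test and sharing no library with the controls. Over 12372 genes, 39.1% were higher without overlap and 35.1% lower, and 2.97% and 9.14% by at least 1.5-fold. Of 150 genes that were 2-fold higher in controls 4-6, 85 (56.7%) were higher and 37 (24.7%) lower in libraries 4 and 5, and 43 (28.7%) and 13 (8.67%) by at least 1.5-fold. Of 132 genes that were 2-fold lower in controls 4-6, 14 (10.6%) were higher and 90 (68.2%) lower, and 2 (1.52%) and 79 (59.8%) by at least 1.5-fold.

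The lists differed in this comparison. Of 34 interferon genes 26 were lower and 5 higher in libraries 4 and 5 at 16 mM. Among 25 p53 targets 18 were lower and 2 higher. Of 18 heat shock genes 15 were higher and 1 lower, and of 30 G2/M genes 23 were higher and 2 lower. Over all genes 39.1% were higher and 35.1% lower. By at least 1.5-fold, 17 interferon genes and 8 p53 targets were lower, 9 heat shock genes were higher and 0 G2/M genes differed. The shares over all genes at 1.5-fold were 2.97% higher and 9.14% lower. Sterol synthesis did not follow: 13 of 23 genes were lower and 5 higher, and 0 differed by 1.5-fold. Other lists did not follow either. Of 14 fatty acid synthesis genes 7 were lower and 4 higher, and of 28 extracellular matrix genes 13 were lower and 10 higher. ERK outputs, mostly lower in controls 4-6, went the other way at 16 mM. Of 18 genes 14 were higher and 4 lower in libraries 4 and 5, and 4 and 1 by at least 1.5-fold. INSIG1 was lower in libraries 4 and 5 (42.8 and 43.4 FPKM) than in libraries 1-3 (78.4 to 89.2 FPKM), the reverse of its order in the controls. GDF15 was lower in libraries 4 and 5 (0.270 and 0.330 FPKM) than in libraries 1-3 (2.25 to 3.18 FPKM), as in the controls. CDKN1A stood at 86.7 and 93.6 FPKM in libraries 4 and 5 and at 156.7 to 165.2 FPKM in libraries 1-3.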

How the data were processed

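Total RNA was enriched for polyadenylated mRNA and sequenced, per the labels' protocols; no label says whether strand was kept, so reads of overlapping or antisense genes may be mixed. The submitters' processing notes name HISAT, Bowtie2 2.3.4.3, RSEM 1.3.1, DESeq2 1.4.5 and genome build GRCh38.p13, without their roles. The authors' deposited table holds 16884 genes with estimated counts (13.1% not whole) and FPKM, so named per the file headers. The members and gene lists were chosen with earlier results of these data known.

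Counts were rounded and filtered with filterByExpr. Log2 CPM used TMM factors and a prior count of 2 (edgeR 4.0.16, R 4.3.3). Between the control sets a gene was counted when the 3 values of each set did not overlap, alone or with a difference of 1.5-, 2- or 4-fold, with no test. The SE is that of a difference of 2 means. At 16 mM, 6 control and 5 exposed libraries were tested two-sided with glmQLFit and glmQLFTest (9 residual degrees of freedom), calling genes at an adjusted p under 0.05; that SE is the log2 change over the square root of F. The code was tested on simulated counts.

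Named genes were the 20 largest differences in each direction with no overlap and at least 5 FPKM in the higher set, up to 5 per list of 50 lists, and a fixed set of further genes; FOXM1, HSF1 and BST2, the only members of their lists in their direction, were named after their values were seen. Not all genes the rule takes are reported here. DESeq2 1.42.0 served for alternatives.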

Additional observations from a re-analysis of the deposited data

Results flagged for a closer look

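In the control group, the value of control 1 stood far from the other 5 libraries, by the gap to the nearest library relative to the range, for 5 of the genes named here. These were FOS (231 FPKM), EGR1 (465.5 FPKM), JUN (202 FPKM), CCN1 (491.6 FPKM) and CCN2 (418.7 FPKM), all of them genes that respond early to growth factors or to mechanical signals. In 99 sets of values examined, 5 were flagged, and chance flags about 1 in 20. The other 5 control libraries lay at 61.3 to 78.9 FPKM for FOS, at 184.2 to 283.3 FPKM for EGR1, at 86.5 to 116.3 FPKM for JUN, at 298.5 to 341.7 FPKM for CCN1 and at 231.2 to 272.1 FPKM for CCN2.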

How the results depend on the processing

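The counts of genes 2-fold apart between the control sets stayed within 1.5 times under DESeq2 size factors, a prior count of 0.5, FPKM and no filter on low counts. With at least 5 FPKM in the control mean they were 97 higher and 29 lower, as fewer genes were compared. Leaving out 1 control at a time gave 122 to 203 higher and 120 to 206 lower, with 206 lower without control 1. At 16 mM, leaving out 1 library at a time gave 3797 to 3944 genes higher and 3673 to 3980 lower. One fit over all 17 libraries gave 2169 higher and 2270 lower, and close libraries summed to 4 samples gave 1333 and 1583; the cause was not tested. With only controls 4-6, INSIG1 (-0.23), FASN (-0.0711) and GDF15 (1.21) reversed. With the replicate block, 3998 genes were higher and 3939 lower at 16 mM, GDF15 passed at -1.05 (adjusted p = 0.00275) and IFI27 kept its call at 1.97 (adjusted p = 0.00461). The deviations of same-numbered control and 16 mM libraries correlated at -0.05 for number 1 and at 0.227 to 0.256 for numbers 2 to 5, and not every library correlated best with its own number, so the numbers were not taken as a pairing. The correlations followed the sets: controls 2 and 3 correlated at 0.223 to 0.307 with 16 mM libraries 1-3 and at -0.300 to -0.266 with libraries 4-5, and controls 4-6 at -0.279 to -0.136 and at 0.157 to 0.268. The list counts without single control libraries and under other scalings were added after seeing the data. Genes at low FPKM rest on few counts, which limits their folds.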

Other observations

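Abundant genes of the actin cytoskeleton, picked after their values were seen, were higher in controls 4-6. Gamma actin ACTG1 stood at 746.5, 560.6 and 563 FPKM in controls 1-3 and at 1621, 1646 and 1439 FPKM in controls 4-6, and beta actin ACTB differed by 0.92 ± 0.16 on the log2 scale. The actin-binding thymosins TMSB10 and TMSB4X differed by 1.29 ± 0.17 and 1.23 ± 0.25, and the myosin light chain MYL6 by 1.23 ± 0.17. GAPDH, often used as a reference gene, differed by 0.31 ± 0.11.

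FGFBP1, a carrier of fibroblast growth factors, stood at 0.4, 0.29 and 0.23 FPKM in controls 1-3 and at 3.97, 4.01 and 2.16 FPKM in controls 4-6, a log2 difference of 3.10 ± 0.34. The antiviral enzyme RSAD2 stood at 1.97, 4.87 and 5.15 FPKM in controls 1-3 and at 0.380, 0.660 and 0.490 FPKM in controls 4-6. These genes too were picked after their values were seen.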
